A study of Mus musculus with 6 samples.

Results

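Cytochrome P450 genes were followed in subcutaneous H22 tumours of BALB/c mice that had received luteolin or its vehicle. They were taken by symbol, as every row of the deposited table named Cyp, a family number, a subfamily letter and a gene number, which gave 98 of 21720 symbols. The rule itself uses no measured value, but it was chosen with earlier results of these data known. Of the 98 genes, 80 were detected with a value above 0 in at least 1 of the 6 libraries, and 18 were at 0 in all of them. Values above a floor of 12 counts, taken as about 3 read pairs, were reached by 57 genes in at least 1 library and by 22 in every library.

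H22 is a mouse hepatocellular carcinoma cell line, here wild type and grown under the skin of female mice aged 6 to 8 weeks at the start. Each group gave 3 libraries of whole tumour tissue. Mice of the control group received 0.5% carboxymethyl cellulose sodium (CMC-Na), a carrier without drug, and mice of the luteolin group 200 mg/kg luteolin, a plant flavonoid. Either was given once a day by gavage in 0.2 mL for 21 days, from a tumour volume of about 50 mm3. All mice carried cells of 1 line, so the groups describe that line in its host and no second tumour. The labels do not tie the libraries to single mice, and p-values then measure the spread between these libraries, which may be technical. Total counts ranged from 61081637 to 80442954, the highest being luteolin replicate 2. In whole tissue, fewer cells of a type and less RNA per cell cannot be told apart.

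Cytochrome P450 enzymes hold a haem group and use oxygen, with electrons passed on by P450 reductase or ferredoxin, to hydroxylate or epoxidize fatty compounds. Some families clear retinoic acid, make steroid hormones, bile acids and active vitamin D, or act on fatty acids. Others, metabolize drugs and dietary compounds, are most abundant in liver and are induced through receptors such as the aryl hydrocarbon receptor (AhR). Many P450 genes are restricted to certain tissues, and skin and its glands have P450 enzymes of their own.

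The promoters of 6 members named in the results below are shown as background, and no expression result rests on them. Cyp26b1 clears retinoic acid and had the smallest p of all members. Its relative Cyp26a1 is a textbook target of the retinoic acid receptor. Cyp1a1 and Cyp1b1 are textbook targets of AhR, and Cyp2b10 and Cyp2b19 are Cyp2b genes of chromosome 7 whose counts were highest in the same library. The sequences are from RefSeq on build GRCm38.p6, not from the tumours, and run up to 250 bases before the gene's start, ended before any annotated exon. They lie at chr6:84593909-84594060 on the minus strand (Cyp26b1), chr19:37697558-37697797 on the plus strand (Cyp26a1) and chr9:57697363-57697612 on the plus strand (Cyp1a1). The others lie at chr17:79715062-79715311 on the minus strand (Cyp1b1), and on the plus strand at chr7:25897408-25897619 (Cyp2b10) and chr7:26756892-26757141 (Cyp2b19). Capitals mark the core promoter box TATAAA in Cyp26b1, and in Cyp26a1, on the other strand, AGTTCA followed after any 5 bases by the same letters, a direct repeat bound by retinoic acid receptors. In Cyp1a1 they mark GCGTG, the core of the site that AhR binds, and in Cyp1b1 the same letters on the other strand. In the Cyp2b pair they mark the longest run that both share.
Cyp26b1: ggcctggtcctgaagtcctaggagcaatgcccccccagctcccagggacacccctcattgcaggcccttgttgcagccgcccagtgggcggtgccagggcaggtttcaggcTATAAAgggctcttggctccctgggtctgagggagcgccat
Cyp26a1: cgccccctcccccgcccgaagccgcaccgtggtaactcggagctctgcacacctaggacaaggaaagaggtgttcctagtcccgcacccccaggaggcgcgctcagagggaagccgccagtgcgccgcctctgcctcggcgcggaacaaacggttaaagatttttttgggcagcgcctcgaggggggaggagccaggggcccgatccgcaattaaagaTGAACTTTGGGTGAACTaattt
Cyp1a1: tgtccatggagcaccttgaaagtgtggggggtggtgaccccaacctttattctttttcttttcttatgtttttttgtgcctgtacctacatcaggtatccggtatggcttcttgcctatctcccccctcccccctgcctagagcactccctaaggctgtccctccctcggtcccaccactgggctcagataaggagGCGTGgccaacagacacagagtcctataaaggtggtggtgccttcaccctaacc
Cyp1b1: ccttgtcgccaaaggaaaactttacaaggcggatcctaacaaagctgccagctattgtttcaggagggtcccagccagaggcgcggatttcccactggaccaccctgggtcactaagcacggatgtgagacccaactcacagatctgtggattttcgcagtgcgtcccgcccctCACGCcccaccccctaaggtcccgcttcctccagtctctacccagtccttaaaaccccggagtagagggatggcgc
Cyp2b10: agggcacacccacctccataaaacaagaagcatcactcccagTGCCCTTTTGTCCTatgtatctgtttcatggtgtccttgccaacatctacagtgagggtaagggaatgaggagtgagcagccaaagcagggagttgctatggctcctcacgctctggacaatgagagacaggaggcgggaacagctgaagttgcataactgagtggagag
Cyp2b19: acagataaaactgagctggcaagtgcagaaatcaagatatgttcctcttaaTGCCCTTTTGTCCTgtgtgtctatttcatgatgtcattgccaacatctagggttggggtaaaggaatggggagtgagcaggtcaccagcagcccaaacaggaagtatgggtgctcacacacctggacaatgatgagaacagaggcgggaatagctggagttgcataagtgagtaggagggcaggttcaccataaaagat

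In every RefSeq promoter window, both strands of the 250 bases before the start were searched, and 76 members had a window. TATAAA was found in 12.4% of all 32851 windows and in 30 of the 86 windows of members. GCGTG was found in 28.2% of all windows and in 15 of those 86. The retinoic acid receptor repeat was found in 7 windows (0.0213%), of which 1 belonged to a member, Cyp26a1, where it began 32 bases before the start. In Cyp26b1 TATAAA began 139 bases before the start. GCGTG began 54 bases before the start of Cyp1a1 and 76 before that of Cyp1b1. The promoters of Cyp2b10 and Cyp2b19 shared a run of 14 bases, and 82.67% of 225 aligned bases were identical. A match describes the letters in the window and is not evidence of binding.

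More P450 genes were detected in the luteolin libraries, although the lowest total count was that of luteolin replicate 1. Values above 0 were found for 30, 46 and 33 genes in control replicates 1, 2 and 3, and for 65, 56 and 53 genes in luteolin replicates 1, 2 and 3. Above 12 counts the numbers were 24, 26 and 25 against 48, 45 and 34, so that the groups did not overlap at either limit. The same held for the whole table, in which 15579, 15687 and 15858 genes were above 0 in the control and 16012, 16767 and 15870 in the luteolin libraries. Over the group, 52 genes were above 0 in at least 1 control library and 76 in at least 1 luteolin library. The summed level was 249.75, 278.32 and 304.85 CPM in the control libraries and 345.02, 647.3 and 276.86 CPM in the luteolin libraries, where CPM are counts scaled to the library total after TMM normalization. Here the groups overlapped, and luteolin replicate 2 stood far above all others. The ratio of the group means was 1.52, and 1.12 without luteolin replicate 2.

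The test across all genes, edgeR's quasi-likelihood test, took in 34 of the 98 genes. A further 46 genes above 0 did not pass its filter, which asks for enough counts in several libraries. Of these, 23 were above 12 counts in at least 1 library. A gene was called where its unadjusted p was under 0.05 and its fold change over 2, the threshold of the study. Of the 34, 15 were called higher in the luteolin group, 1 was called lower (Cyp2c55) and 18 were not called. Over all 14963 genes tested, 11.3% were called higher and 1.52% lower. After Benjamini-Hochberg adjustment over all genes, 2 members (Cyp26b1 and Cyp4v3) were higher at an adjusted p under 0.05, where 1.34% of all genes were, and 0 were lower by edgeR, where 0.187% of all genes were. Lower at an unadjusted p under 0.05 was 1 member by edgeR, and at an adjusted p under 0.05 DESeq2 gave 0 as well.

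The count of members called cannot be read against that background alone, since a gene with no control counts enters the test only if it is high in the luteolin group. Of the 34 genes, 7 lay at or under 12 counts in every control library, and 5 of these were among the 15 called higher. The median log2 fold change of the 34 was 1.71, against -0.01 over all genes tested. Setting the tested genes at 0 in every control (Cyp17a1 and Cyp2g1) to their bounds could not change it, since both bounds lay above the median. The median was 0.57 over the 22 members with at least 10 counts in every library, of which 8 were called higher. Every luteolin library lay above every control library in 13 of the 34 genes (15.9% of all genes), and every one below in 1 (12.8% of all genes).

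**Figure D1:**
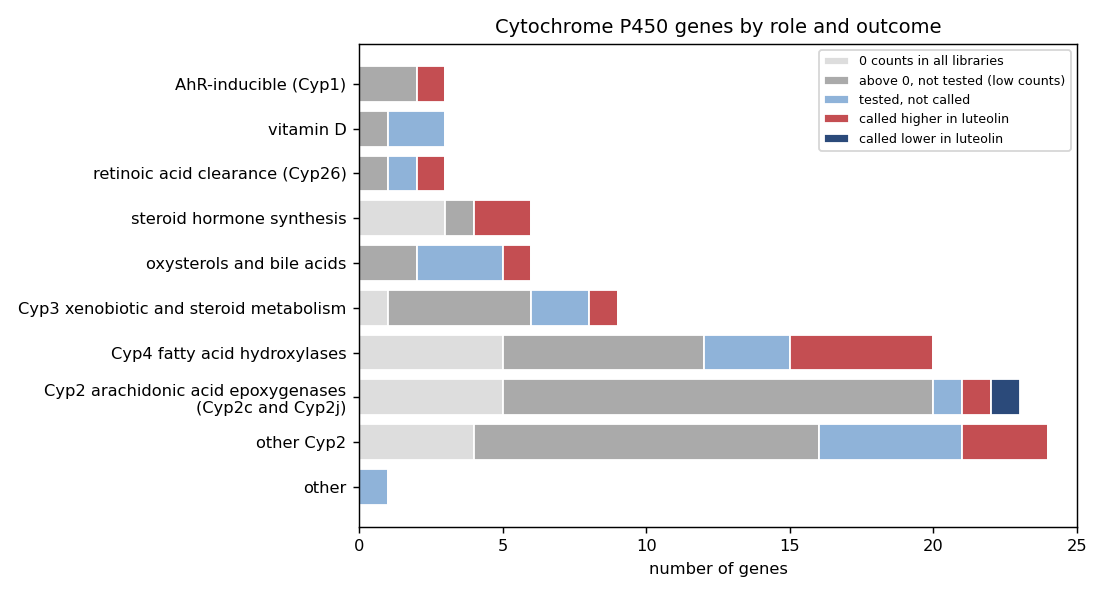
Number of cytochrome P450 genes (horizontal axis) in each role (vertical axis), split by outcome. Of 98 genes, 18 were at 0 in all libraries, 46 were above 0 but not tested, 18 were tested and not called, 15 were called higher in the luteolin group and 1 lower.

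Luteolin replicate 2 stood apart in its markers of skin. The keratinocyte genes, such as Krt5 and Krt14 of the basal epidermis and Krt1 and Krt10 of its upper layers, summed to 13.9 to 18.5 CPM in the control libraries and to 416.76, 9736.7 and 21.03 CPM in luteolin replicates 1, 2 and 3. Of the 11 genes on that list, 7 (Krt14, Krt5, Krt1, Lor, Krtdap, Dsg1a and Dsc3) were at 0 in all control libraries, and 8 were above every control in every luteolin library. The sebaceous gland list summed to 346.53 to 587.75 CPM in the control libraries and to 539.32, 1222.3 and 537.37 CPM in the luteolin libraries, with 1 of 8 genes (Awat1) at 0 in all controls. The adipocyte list summed to 19.568 to 76.51 CPM and to 57.175, 327.63 and 20.169 CPM, with Lep the 1 of 8 genes at 0 in all controls. The summed keratinocyte list was thus highest in luteolin replicate 2, lower in replicate 1 and lower again in replicate 3. The sebaceous gland sum of luteolin replicates 1 and 3 and the adipocyte sum of these libraries lay inside the control range. Scd1 and Soat1 gave most of the sebaceous gland sum in every control library. Of the 8 sebaceous gland genes, 3 (Awat1, Elovl3 and Far2) were above every control in every luteolin library, as were 0 of the 8 adipocyte genes. Of the 34 P450 genes tested, 18 were highest in luteolin replicate 2, as were 34.0% of all genes tested. Among the 15 called higher, 11 were highest there. The part of skin tissue in the P450 results was not tested, and values without that library are given beside them.

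Most of the summed CPM of the 98 genes in the control libraries came from a few of them. Per kb of exon, Cyp20a1, a P450 of unknown substrate, was highest of the 98 with 34.9 ± 10.4 CPM per kb in control and 33.6 ± 9.47 in luteolin tumours (SD, n = 3 each). Cyp4f16, of the fatty acid hydroxylases, followed with 26.3 ± 4.48 and 20.5 ± 1.26 CPM per kb. Cyp2c55 came next with 16.5 ± 6.82 and 7.13 ± 3.40 CPM per kb in the same order of groups. The SDs of Cyp20a1 and Cyp4f16 overlapped in the control group, as did those of Cyp4f16 and Cyp2c55. Together with Cyp4f13 and Cyp2u1, these genes held 82.4%, 83.6% and 79.3% of the CPM summed over the 98 genes in the control libraries. The share was 59.3%, 25.05% and 69.7% in luteolin replicates 1, 2 and 3, below every control. That sum leaves out the 4 P450 genes outside the symbol rule, Cyp51 among them. These had 130.23, 140.59 and 142.51 CPM together in control replicates 1, 2 and 3. In luteolin replicate 2 the first places went to Cyp2g1, with 17.6% of the summed CPM, and Cyp26b1, with 11.8%.

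**Figure D2:**
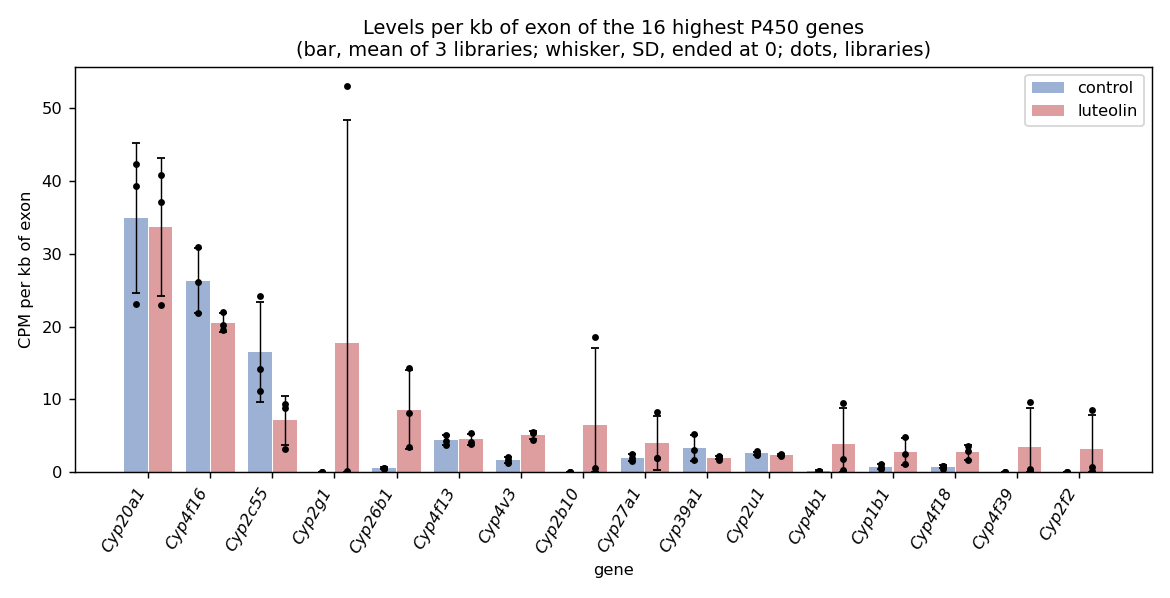
Levels of the 16 highest of the 98 P450 genes in CPM per kb of exon (vertical axis, linear). Bars are means of 3 libraries, whiskers SD ended at 0 and dots single libraries. Cyp20a1 and Cyp4f16 lead in both groups, while Cyp2g1 and Cyp2b10 are at 0 in every control library and owe their place to 1 luteolin library.

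Among the genes that clear retinoic acid, the vitamin A derivative that controls cell differentiation, Cyp26b1 increased. Its level was 2.35, 3.49 and 3.32 CPM in control replicates 1, 2 and 3 and 43.2, 76.5 and 18.5 CPM in luteolin replicates 1, 2 and 3. All luteolin libraries lay above all controls, and the lowest of them was far above the highest control. The log2 fold change was 3.92 ± 0.54 (SE, n = 3 per group, edgeR, adjusted p = 0.0332). Without luteolin replicate 2 it was 3.36 (adjusted p = 0.0244). The adjusted p rose to 0.169, 0.21 and 0.159 when control replicate 1, 2 or 3 was left out and to 0.124 without luteolin replicate 1, and it was 0.0334 without luteolin replicate 3. Its relatives were near the detection limit. Cyp26a1 had 4, 0 and 0 counts in the control and 28, 8 and 3 counts in the luteolin libraries, and was not tested. Cyp26c1 had 0, 13 and 6 counts against 0, 19 and 16, with overlapping groups and an adjusted p of 0.849 in edgeR.

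Genes that make or carry retinoic acid were measured as a list beside the members. Crabp1, a retinoic acid binding protein, was at 0 in all controls and reached 5.36, 7.96 and 2.43 CPM in the luteolin libraries, at least 29.0-fold higher than the floor of 12 counts per library (adjusted p = 0.0331, edgeR). Aldh1a3, which makes retinoic acid, rose from 0.832 ± 0.190 to 5.41 ± 2.32 CPM (SD, n = 3 each), with a log2 fold change of 2.70 and an adjusted p of 0.0526 in edgeR. Aldh1a1 (2.39) and Aldh1a2 (1.23), which catalyse the same step, were also called higher at the study's threshold, Aldh1a1 not without control replicate 2 (2.04) and Aldh1a2 not with an offset for GC content and length (0.92). Crabp2 was called higher as well (log2 fold change 3.83), with 14.984 CPM in luteolin replicate 2 and 1.5673 and 0.37553 CPM in the other two, and its log2 fold change was 1.31 without that library (adjusted p = 0.505, edgeR), which ended the call, as did leaving out any 1 control (3.51 to 4.01). Stra6, the receptor that takes up retinol, fell by 1.91 on the log2 scale, from 5.62, 4.28 and 3.69 CPM to 0.947, 1.70 and 0.970 CPM. Rdh10, which acts before the Aldh1a enzymes, had a log2 fold change of -0.02 and was not called.

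Cyp4v3, which hydroxylates fatty acids and whose human counterpart is mutated in a retinal dystrophy, increased most evenly. It had 4.89, 6.22 and 7.92 CPM in the control libraries and 20.4, 16.9 and 20.9 CPM in the luteolin libraries. The groups did not overlap, and luteolin replicate 2 was the lowest of its group. The log2 fold change was 1.61 ± 0.26 (SE, n = 3 per group, adjusted p = 0.0437, edgeR) and 1.72 without luteolin replicate 2 (adjusted p = 0.0313). The adjusted p was 0.175, 0.247 and 0.148 without control replicate 1, 2 or 3, 0.145 without luteolin replicate 1 and 0.0726 without luteolin replicate 3. Of the transcript's stretches of 75 bases, 6.4% were shared with another gene.

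Of the 20 Cyp4 genes, 15 were detected, 8 tested and 5 called higher, among them Cyp4v3. Cyp4f18, known from neutrophils, where it inactivates the attractant leukotriene B4, had 1.70, 1.70 and 0.961 CPM in the control and 6.60, 5.54 and 3.07 CPM in the luteolin libraries. The groups did not overlap, with a log2 fold change of 1.80 ± 0.46 (SE, adjusted p = 0.103, edgeR) and of 1.75 without luteolin replicate 2. The summed level of the neutrophil markers was 18.656 to 21.198 CPM in the control libraries and 165.16, 180.7 and 76.578 CPM in the luteolin libraries, with 0 of 6 markers at 0 in all controls and 4 of 6 above every control in every luteolin library. Of all genes tested, 15.9% were above every control in this way. The remaining markers, Retnlg (log2 fold change 0.43) and Ly6g (-0.57), overlapped between the groups and were not called. Whether Cyp4f18 moved with the share of neutrophils was not tested.

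Cyp4f39 makes the very long omega-hydroxylated fatty acids of the skin barrier. It had 0, 0 and 4 counts in the control libraries and 80, 2300 and 28 counts in luteolin replicates 1, 2 and 3 (adjusted p = 0.1 in edgeR). Cyp4b1, best known from the lung, had 24, 0 and 36 counts against 261, 1781 and 52 (adjusted p = 0.168, edgeR). Both were above every control in every luteolin library, and both were highest in luteolin replicate 2. Cyp4f17 had 57, 34 and 20 counts against 169, 564 and 40, so that luteolin replicate 3 fell below control replicate 1. Without luteolin replicate 2, Cyp4f39 was still called (adjusted p = 0.133), whereas Cyp4b1 (adjusted p = 0.319) and Cyp4f17 (adjusted p = 0.362) were not, by edgeR's test. The most abundant Cyp4 genes were not called. Cyp4f16 had 94.7, 80.3 and 67.2 CPM against 61.9, 67.3 and 59.8 CPM (log2 fold change -0.36, adjusted p = 0.299, edgeR), with luteolin replicate 2 just above control replicate 3, and shared 16.1% of its 75-base stretches with other genes. Cyp4f13, of the same cluster on chromosome 17, had 22.9, 19.4 and 16.8 CPM against 18.8, 24.1 and 17.5 CPM (log2 fold change 0.03). Cyp4f37, the remaining tested gene, had a log2 fold change of 1.27 (adjusted p = 0.437, edgeR).

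Among the genes of oxysterols and bile acids, Cyp7b1 was called higher. This enzyme hydroxylates oxysterols and makes the ligand through which the receptor Gpr183 guides immune cells. It had 0.987, 0.247 and 1.47 CPM in the control libraries and 6.79, 5.29 and 5.15 CPM in the luteolin libraries. The groups did not overlap, and the luteolin libraries lay close together. The log2 fold change was 2.67 ± 0.65 (SE, adjusted p = 0.0977, edgeR) and 2.74 without luteolin replicate 2. Genes before and after it in that pathway were called higher as well. Ch25h, which makes the substrate of Cyp7b1, rose from 3.48, 6.30 and 3.81 CPM to 21.6, 16.5 and 19.3 CPM (log2 fold change 2.08, adjusted p = 0.0393, edgeR). Gpr183 rose from 2.05, 2.69 and 1.55 CPM to 5.65, 7.94 and 6.76 CPM (log2 fold change 1.69, adjusted p = 0.0746, edgeR). Nr1h3, the oxysterol receptor LXR alpha, was called higher with a log2 fold change of 1.65. Hsd3b7, which degrades the ligand, had a log2 fold change of 0.44 and was not called.

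The other sterol enzymes were not called. Cyp27a1, which starts the acidic route of bile acid synthesis, had 5.51, 3.27 and 4.31 CPM against 4.15, 18.1 and 4.26 CPM. Only luteolin replicate 2 was high, and its log2 fold change of 1.02 (adjusted p = 0.427, edgeR) became -0.04 without that library. Cyp39a1, an oxysterol hydroxylase, had 5.28, 9.31 and 16.03 CPM against 6.73, 5.35 and 6.29 CPM (log2 fold change -0.74, adjusted p = 0.387, edgeR). It was called lower only when control replicate 1 was left out (log2 fold change -1.07). Cyp46a1, which clears cholesterol in the brain, had a log2 fold change of 0.11. Cyp7a1, the rate-limiting enzyme of bile acid synthesis in liver, had 13, 0 and 5 counts against 5, 8 and 4 and was not tested. Cyp8b1, which sets the kind of bile acid made, had 0 counts in all controls and 20, 59 and 4 counts in the luteolin libraries. Cyp51, the sterol demethylase, whose symbol lies outside the rule for members, had 100.2 ± 13.8 and 100.8 ± 7.11 CPM (SD, n = 3 each).

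Of the 6 steroid hormone genes, 2 were tested, Cyp11a1 and Cyp17a1, and both were called higher. With no control counts, Cyp17a1 could enter the test only by being high in the luteolin group. Cyp11a1, which cleaves the side chain of cholesterol, had 0.744, 1.00 and 0.729 CPM in the control and 1.98, 5.27 and 1.86 CPM in the luteolin libraries. The groups did not overlap, and the log2 fold change was 1.88 ± 0.56 (SE, adjusted p = 0.138, edgeR), or 1.23 without luteolin replicate 2. Cyp17a1, the enzyme of androgen synthesis, was at 0 in all controls and had 13, 1685 and 19 counts in luteolin replicates 1, 2 and 3. It was at least 38.1-fold higher than 12 counts per library, but the bound was 1.41-fold without luteolin replicate 2. Star, which delivers cholesterol to Cyp11a1, had a log2 fold change of -0.41 and was not called. Cyp11b1, Cyp11b2 and Cyp19a1 were at 0 in all 6 libraries, and Cyp21a1 did not pass 5 counts in any.

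Cyp1a1 and Cyp1b1 were highest in luteolin replicate 2. Cyp1b1, which metabolizes oestrogens and aromatic compounds outside the liver, had 2.93, 4.08 and 6.90 CPM in the control and 15.1, 28.3 and 6.31 CPM in the luteolin libraries. It was called higher (log2 fold change 1.84 ± 0.59 SE, adjusted p = 0.159, edgeR), although luteolin replicate 3 lay below control replicate 3. Without luteolin replicate 2 it was still called (log2 fold change 1.23), and without control replicate 1 (1.54) or 2 (1.71) it was not. Cyp1a1, the most used readout of AhR, was at 0 in all controls and had 36, 930 and 0 counts in the luteolin libraries. It was not tested, and its bound of at least 21.6-fold was 1.62-fold without luteolin replicate 2. Cyp1a2, a liver enzyme, did not pass 4 counts in any library. Ahr itself had a log2 fold change of 0.58 (adjusted p = 0.416) and its repressor Ahrr, another target, of 2.71 (adjusted p = 0.331), neither called by edgeR. Tiparp, also an AhR target, had 36.2, 55.6 and 78.7 CPM against 67.3, 20.2 and 67.5 CPM and was lowest in luteolin replicate 2. Ahrr was highest in that library, with 0.415, 0 and 0.388 CPM against 0.718, 4.03 and 0.532 CPM. It was called higher with DESeq2 (log2 fold change 2.68) and with voom (5.33). The targets were thus not ordered alike over the libraries, and the part of AhR in their values was not tested.

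**Figure D3:**
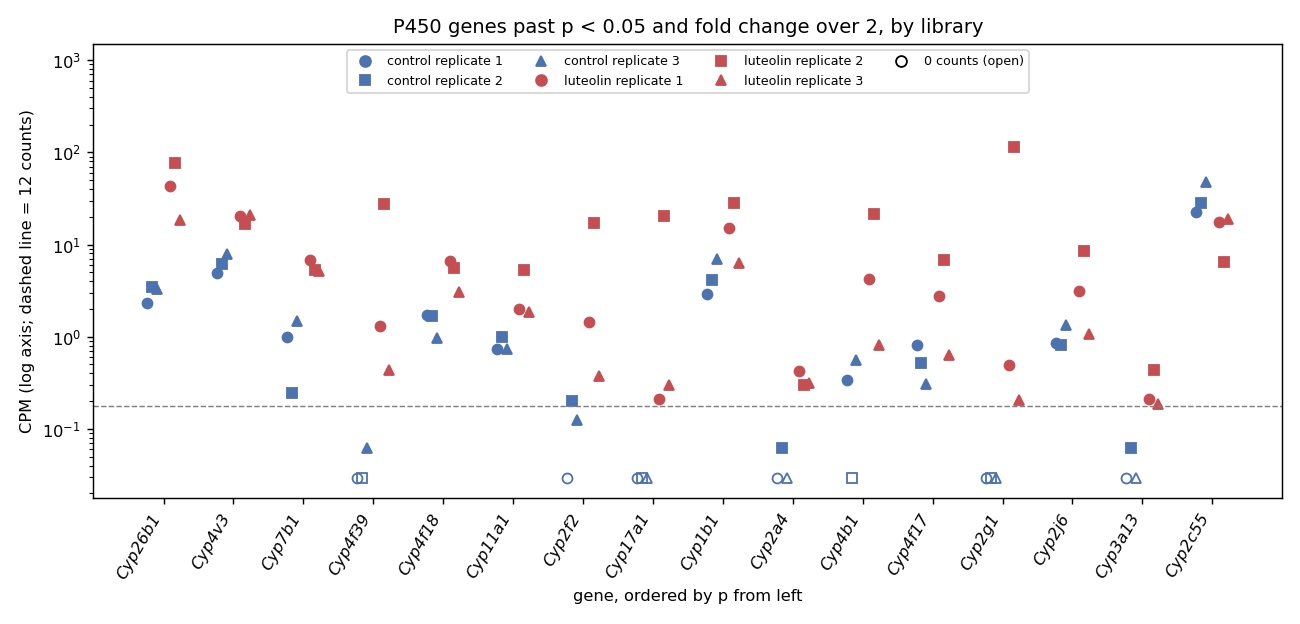
CPM of the 16 called P450 genes in each library (vertical axis, log scale, open symbols at the bottom for 0 counts), ordered by p from the left. Cyp26b1, Cyp4v3 and Cyp7b1 separate the groups in all libraries. So do Cyp2g1, Cyp17a1 and Cyp4f39, for which luteolin replicate 2 lies far above the other luteolin libraries.

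Of the 24 Cyp2 genes outside the Cyp2c and Cyp2j groups, with Cyp2r1 counted among the vitamin D genes, 20 were detected, 8 tested and 3 called higher (Cyp2g1, Cyp2f2 and Cyp2a4, all on chromosome 7). Cyp2g1, known from the olfactory mucosa, was at 0 in all controls and had 30, 9501 and 13 counts in the luteolin libraries. It was at least 210.6-fold higher than 12 counts per library, but the bound was 1.91-fold without luteolin replicate 2. Cyp2f2, an enzyme of the airway lining, had 0, 13 and 8 counts in the control and 88, 1444 and 24 in the luteolin libraries, and was not called without luteolin replicate 2 (adjusted p = 0.321, edgeR). Cyp2a4, a steroid hydroxylase, had 0, 4 and 0 counts against 26, 25 and 20. Its luteolin libraries were alike, but 22.1% of its 75-base stretches were shared with other genes, mostly Cyp2a5, so its counts are uncertain. Over 10% of such stretches were shared by 30 of the 98 members.

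Cyp2b10 and Cyp2b19, whose promoters are printed above, did not enter the test. Cyp2b10, induced in liver through the receptor CAR, was at 0 in all controls and had 84, 3287 and 4 counts in the luteolin libraries. Cyp2b19, a keratinocyte enzyme, was likewise at 0 and had 60, 1875 and 8 counts. Both were high in luteolin replicate 2, lower in replicate 1 and at or under 12 counts in replicate 3, the order of the keratinocyte list. Luteolin replicate 2 stood over replicate 1 by 28.7 times for Cyp2b10, 22.9 for Cyp2b19, 21.1 for Cyp4f39, 18.9 for Cyp1a1, 12.03 for Cyp2f2 and 5.00 for Cyp4b1, and by 23.4 for the summed keratinocyte list. The ratio was 232 for Cyp2g1 and 95.0 for Cyp17a1, and 0.830 for Cyp4v3, 0.779 for Cyp7b1, 0.840 for Cyp4f18 and 1.77 for Cyp26b1. Luteolin replicate 2 over replicate 3 gave another order, with 559 for Cyp2g1, 67.8 for Cyp17a1, 62.8 for Cyp4f39, 46.02 for Cyp2f2 and 26.2 for Cyp4b1 against 463 for the keratinocyte list, so which genes came near that list depended on the ratio taken. Nr1i3, the gene of CAR, had a log2 fold change of 0.65 (adjusted p = 0.738, edgeR).

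**Figure D4:**
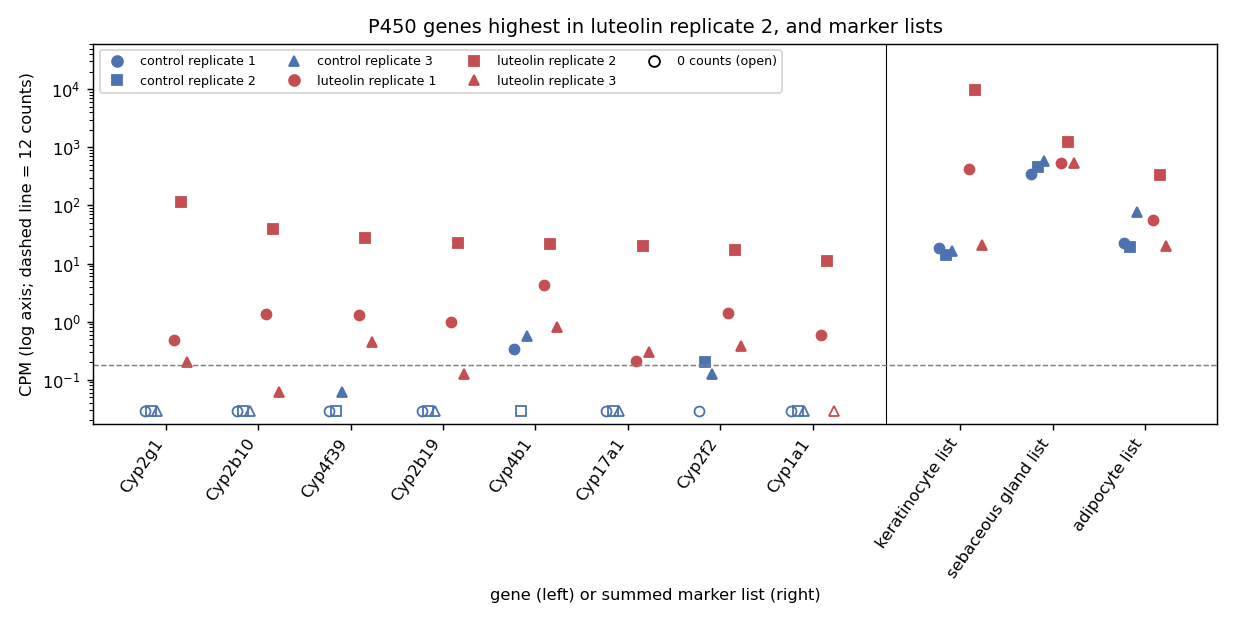
CPM per library (vertical axis, log scale, open symbols for 0 counts) of 8 P450 genes that were highest in luteolin replicate 2 (left) and summed CPM of the keratinocyte, sebaceous gland and adipocyte marker lists (right). Luteolin replicate 2 stands highest in every column, with 9736.7 CPM for the keratinocyte list.

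The other genes of this class were not called with all libraries. Cyp2u1, which hydroxylates fatty acids, had 13.7 ± 1.22 CPM against 12.3 ± 0.502 CPM (SD, n = 3 each). Cyp2s1, an epithelial enzyme, had 8.51, 6.80 and 7.85 CPM against 4.15, 8.32 and 2.75 CPM (adjusted p = 0.504, edgeR). Without luteolin replicate 2 it was called lower, with a log2 fold change of -1.14 (adjusted p = 0.127, edgeR). Cyp2e1, the ethanol-metabolizing enzyme of liver and fat, had 0, 28 and 295 counts against 49, 180 and 52. Control replicate 3 and luteolin replicate 2 were the high libraries, and these also had the highest sums of the adipocyte list. Its log2 fold change was -0.41 (adjusted p = 0.922, edgeR), with opposite signs depending on the library left out. Cyp2d22 had a log2 fold change of 1.26 (adjusted p = 0.348, edgeR), and Cyp2t4 one of -0.04.

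In the Cyp2c and Cyp2j groups, many of whose enzymes epoxidize arachidonic acid, 18 of 23 genes were detected and 3 tested. Cyp2c55, known from the intestine, was the 1 member called lower. It had 22.4, 28.2 and 48.3 CPM in the control and 17.5, 6.42 and 18.8 CPM in the luteolin libraries. All luteolin libraries lay below all controls, by the smallest margin between control replicate 1 and luteolin replicate 3. The log2 fold change was -1.21 ± 0.47 (SE, adjusted p = 0.21, edgeR). It was -0.84 without luteolin replicate 2, -0.83 without control replicate 3 and -1.30 without control replicate 2 (adjusted p = 0.279, 0.45 and 0.426, edgeR), and the call was lost in each case. Cyp2j6 was called higher, with 60, 53 and 87 counts against 192, 718 and 69, and luteolin replicate 3 lay within the control range. Without luteolin replicate 2 it was not called (adjusted p = 0.424, edgeR). Cyp2j9 had 4, 4 and 25 counts against 41, 148 and 4 and was not called. Cyp2j12 was at 0 in 5 libraries and had 207 counts in luteolin replicate 2.

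Of the 9 Cyp3 genes, which metabolize steroids and drugs, 8 were detected at low counts. Cyp3a13, the form found in the intestine, had 0, 4 and 0 counts in the control and 13, 36 and 12 in the luteolin libraries. It was called higher (adjusted p = 0.192, edgeR), but not when control replicate 1 or 3 or any luteolin library was left out. Cyp3a11, the main liver form, was at 0 in all controls and had 42, 0 and 24 counts in the luteolin libraries. It did not pass the filter on low counts with all libraries. Without luteolin replicate 2 it passed and was called higher (adjusted p = 0.0907, edgeR), but against controls at 0 its fold change depends on the prior count, and the bound was 2.93-fold. Without any 1 control it also passed and was not called, and it was called by DESeq2 and by edgeR with no filter. Cyp3a41a had 0, 10 and 0 counts against 58, 18 and 16 and was not called (adjusted p = 0.306, edgeR). It shares 95.3% of its 75-base stretches with Cyp3a41b and other genes, so reads cannot be assigned between them with certainty. Cyp3a57 was at 0 in 5 libraries and had 235 counts in luteolin replicate 2.

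The vitamin D genes were not called. Cyp27b1, which makes the active hormone, had 93, 97 and 83 counts in the control and 67, 146 and 90 in the luteolin libraries. Its log2 fold change was 0.05 ± 0.42 (SE, adjusted p = 0.968, edgeR), and the groups overlapped. Cyp2r1, which acts on vitamin D one step earlier, had 1.23, 0.849 and 1.81 CPM against 0.294, 1.18 and 0.767 CPM (log2 fold change -0.79, adjusted p = 0.553, edgeR). Cyp24a1, which degrades the hormone, had 8 counts in control replicate 2 and 0 in the other 5 libraries. Vdr, the receptor, had a log2 fold change of 0.74 (adjusted p = 0.433, edgeR).

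The cells are labelled hepatocellular carcinoma. Cyp1a2, Cyp3a11, Cyp7a1 and Cyp2e1, P450 genes known from liver, had the values given above. Among the hepatocyte markers, Alb had 3.06, 60.3 and 0.868 CPM in the control and 133, 26.0 and 31.9 CPM in the luteolin libraries. The summed list was 325.46 to 372.79 CPM and 300.91, 214.68 and 329.23 CPM, of which Trf, a gene used by other cells too, gave the most in every control library, and 0 of 12 markers were at 0 in all controls. Hnf4a, a regulator of liver genes, was at or under 0.327 CPM in every library. The hepatoma marker Afp was present in every library, between 32.7 and 66.7 CPM. Of the 46 detected but untested P450 genes, 20 were highest in luteolin replicate 1, 13 in luteolin replicate 2, 6 in luteolin replicate 3 and 2, 4 and 1 in control replicates 1, 2 and 3. Luteolin replicate 1 also had the highest Alb, and control replicate 2 the highest Alb of its group and the most P450 genes above 0. As picked examples, Cyp2c69 had 0, 18 and 0 counts against 37, 11 and 4, and Cyp4a10 had 0, 12 and 0 against 16, 5 and 0. Both were thus highest in the same library of each group as Alb. Their counts were low, and 43.2% of the stretches of Cyp2c69 and 19.1% of those of Cyp4a10 were shared with other genes. Cyp3a11 differed, with 0 counts in all controls and 42, 0 and 24 in the luteolin libraries. Unlike Cyp2c69 and Cyp4a10, Alb was higher in luteolin replicate 3 than in luteolin replicate 2. The part of liver RNA in these low counts was not tested.

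The reductase and haem that P450 enzymes need were followed as further lists. Por, the reductase that feeds electrons to microsomal P450 enzymes, had 180, 140 and 122 CPM in the control and 140, 133 and 108 CPM in the luteolin libraries (log2 fold change -0.21, adjusted p = 0.599, edgeR). Among the 10 electron transfer genes tested the smallest p belonged to Cyb5r3, whose fold change was under the one a call asks for (log2 fold change 0.70, adjusted p = 0.205, edgeR). Of 10 genes of haem synthesis and breakdown, Hmox1 was called higher, from 49.1, 55.9 and 42.3 CPM to 136, 139 and 98.9 CPM (log2 fold change 1.35, adjusted p = 0.0366, edgeR). With the GC content and length offset the log2 fold change was 0.98 and the call was lost. This enzyme degrades haem, while Alas1, the first step of its synthesis, had a log2 fold change of 0.02. Fech, the last step, had a log2 fold change of -0.71 (adjusted p = 0.0815, edgeR), less than the fold change the threshold asks for.

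Of 22 receptors and transcription factors that control P450 genes, 16 were tested, 3 were called higher (Nr1h3, Rxra and Cebpa) and 1 lower. Rxra, the common partner of these receptors, had a log2 fold change of 1.57, and 0.69 without luteolin replicate 2. Cebpa had 1.90, and 0.69 without that library, so both calls were lost without it. The call of Rxra was also lost without control replicate 2 (1.51) or 3 (1.45) and that of Cebpa without any 1 control (1.79 to 1.88). Nr1h4, the bile acid receptor, was called lower, with 0.401, 1.20 and 1.60 CPM against 0.261, 0.371 and 0.141 CPM. Its call was lost without control replicate 2 (-1.97) or 3 (-1.63) or luteolin replicate 1 (-2.05) or 3 (-1.80). Among 4 P450 genes outside the rule the smallest p was that of Ptgis, prostacyclin synthase (log2 fold change 0.68, adjusted p = 0.268, edgeR). Over all 5 lists, 56 of 65 genes were tested, 11 were called higher and 2 lower, and 3 (Crabp1, Hmox1 and Ch25h) were higher at an adjusted p under 0.05. Of all genes tested by edgeR, 11.3% were called higher, 1.52% were called lower and 1.34% were higher at that adjusted p.

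Markers of several stromal and immune cell types, which express P450 genes of their own, were also called higher in the luteolin group. The share called higher over all genes tested was 11.3%. Fibroblast markers summed to 1412.2 to 1578.2 CPM in the control and 4138.7, 5008.1 and 2030.6 CPM in the luteolin libraries, with 5 of 7 called higher. T cell markers summed to 13.637 to 15.429 CPM and 47.118, 87.309 and 51.746 CPM (7 of 7 tested called higher), and mast cell markers to 3.563 to 10.44 CPM and 50.089, 80.727 and 22.579 CPM (5 of 6). Macrophage markers summed to 1893 to 2224 CPM and 2345.8, 3566.4 and 3236.1 CPM (1 of 8), and endothelial markers to 83.924 to 105.37 CPM and 169.94, 268.37 and 104.74 CPM (3 of 6). Skeletal muscle markers summed to 460.51 to 1058.9 CPM and 367.39, 1049.9 and 230.77 CPM (0 of 6). On each of these lists 0 markers were at 0 in all controls. The part of these cells in the P450 results was not tested.

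Leaving out luteolin replicate 2 ended a part of the P450 calls. In that fit 11 members were called higher, 10 of them among the 15 of the full fit. These were Cyp26b1, Cyp4v3, Cyp7b1, Cyp4f18, Cyp4f39, Cyp11a1, Cyp17a1, Cyp2g1, Cyp2a4 and Cyp1b1, and Cyp3a11 was added. Of these, Cyp17a1, Cyp2g1 and Cyp3a11 were at 0 in all controls, so their fitted changes depend on the prior count, and without luteolin replicate 2 the bounds of Cyp17a1 (1.41-fold) and Cyp2g1 (1.91-fold) were below the fold change a call asks for. The 5 calls lost were Cyp2f2, Cyp2j6, Cyp3a13, Cyp4b1 and Cyp4f17. The median log2 fold change of the 38 members then tested was 1.11. Leaving out other single libraries also ended some calls. These were Cyp2a4 without control replicate 1 or 3 or luteolin replicate 1 (adjusted p = 0.322 to 0.346), Cyp2g1 without control replicate 1 or 3 (adjusted p = 0.344 and 0.334), Cyp2f2 without control replicate 3 (adjusted p = 0.326), Cyp4b1 without control replicate 1 (adjusted p = 0.351), Cyp4f17 without control replicate 2 or 3 (adjusted p = 0.422 and 0.351) and Cyp2j6 without any of the controls (adjusted p = 0.326 to 0.458), by edgeR's test. Cyp26b1, Cyp4v3, Cyp7b1, Cyp4f18, Cyp4f39 and Cyp11a1 were called at the study's threshold in every fit that left out 1 library, as was Cyp17a1 within the limit just given. A like limit holds for Cyp4f39, which had 0, 0 and 4 counts in the controls. Its log2 fold change, 5.31 to 12.4 in these fits, rests on nearly empty controls and on the prior count.

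**Figure D5:**
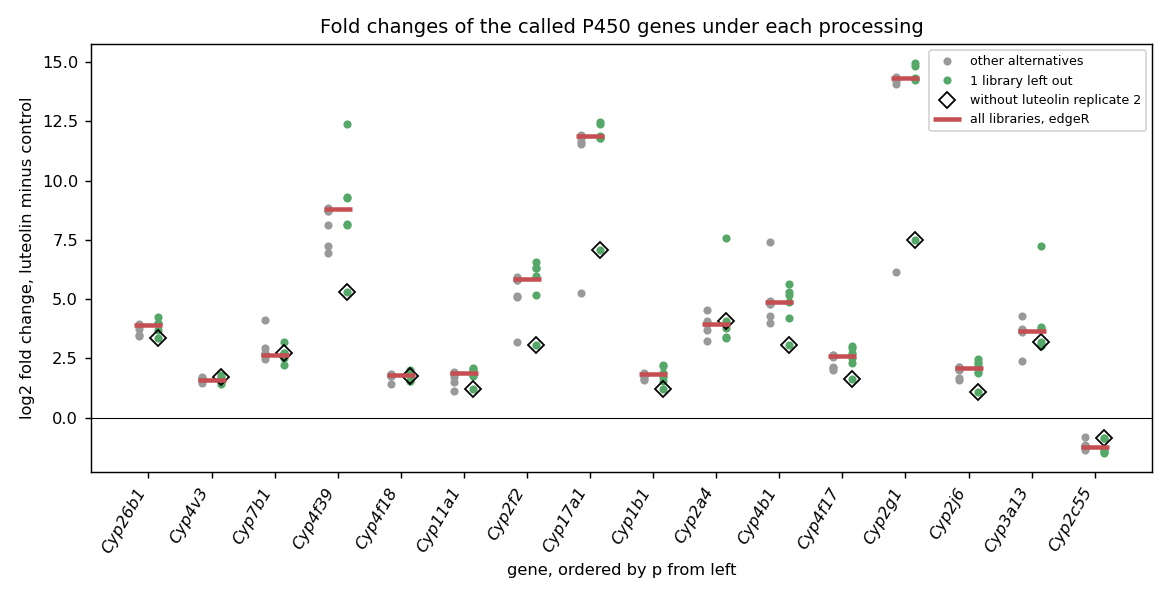
Log2 fold change (vertical axis, luteolin minus control) of the 16 called P450 genes under each processing, ordered by p from the left. Red bars give the full edgeR fit, green dots fits with 1 library left out, diamonds those without luteolin replicate 2 and grey dots other settings. The values of Cyp26b1 lie between 3.36 and 4.23 and those of Cyp4v3 between 1.44 and 1.80, whereas those of Cyp2g1 and Cyp17a1 fall by several units without luteolin replicate 2.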

How the data were processed

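RNA-seq covered 3 libraries of control tumours and 3 of tumours given luteolin at 200 mg/kg. The table that the authors deposited holds whole numbers by gene and library, analysed here as estimated counts. Multiples of 4 made up 44.8% of those between 1 and 40 (even spread, 25%), so 1 read pair was taken as about 4 units and the floor as 12 counts. That unit was not tested, and the bounds rest on it. The submitters' processing notes name bcl2fastq 2.0, HISAT2, StringTie, DESeq2 and the builds rn6 and mm39, without roles. Strand use in counting is not given in the sources used here, so overlapping antisense genes cannot be separated. The methods name Trizol and a TruSeq kit for extraction and library preparation, the labels RNeasy and SMARTer kits.

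Members matched the symbol rule, and all 98 were found in GENCODE M21, which gave exon lengths. Members and lists were chosen with earlier results of these data known. Counts were compared with edgeR 4.0.16 in R 4.3.3 (TMM, filterByExpr, quasi-likelihood test across all genes, no covariates, Benjamini-Hochberg adjustment over 14963 genes). Log2 fold changes carry edgeR's prior count of 0.125, and SE was the fold change over the square root of F. Named genes were the called members, the 10 highest per kb, the smallest p of each role, 9 fixed members (Cyp1a1, Cyp1b1, Cyp7a1, Cyp27a1, Cyp26b1, Cyp27b1, Cyp2e1, Cyp3a11 and Cyp3a13), the called partners and the smallest p of each partner list, with Por, Ahr, Ahrr and Cyp51. Other genes were named after their values were seen. Shared 75-base stretches were counted against all GENCODE transcripts. The script was tested on simulated data. With 3 libraries against 3, an exact permutation test could not fall below 0.1. Alternatives were DESeq2 1.42.0, limma 3.58.1 voom with quality weights, other scalings and filters, values divided by 4, a GC content and length offset (splines with 4 and 3 degrees of freedom), the replicate block and each library left out.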

Additional observations from a re-analysis of the deposited data

How the results depend on the processing

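Of the 98 P450 genes, 15 were called higher, and the count was 23 without a filter on low counts, 8 with at least 10 counts in every library, 9 with values divided by 4, 21 with DESeq2, 17 with voom, and 11 to 21 with 1 library left out. The 1 gene called lower became 2 with the GC content and length offset and 0 to 2 with 1 library left out. The 2 genes higher at an adjusted p under 0.05 became 12 with DESeq2, 10 with voom, 1 without a filter, 1 with the replicate block (Cyp2g1, adjusted p = 0.0499 in edgeR) and 0 to 2 with 1 library left out. The count of 0 genes lower at an adjusted p under 0.05 by edgeR became 2 with voom and 1 (Cyp2c55) with the offset, was 0 with DESeq2, and at an unadjusted p under 0.05 edgeR gave 1. Leaving out any control or luteolin replicate 1 left 0 genes of the whole table at an adjusted p under 0.05. Of the 2 partner genes called lower, 1 was called with at least 10 counts in every library, with the replicate block, with values divided by 4, and 1 to 2 with 1 library left out. The 80 genes detected became 22 with at least 10 counts in every library. The cause of these changes was not tested, except that filters alter which genes enter.

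Same-numbered libraries did not deviate together (r = -0.196, -0.092 and 0.063, against -0.124 to 0.200 for the other pairs). With so few libraries, these values cannot decide whether the replicate numbers pair the samples. The block called 13 members higher and 1 lower. The offset moved the median of all genes to -0.24. Signs reversed for these genes, none of them called: Cyp20a1 0.060 (voom) and -0.29 to 0.18 with 1 library left out, Cyp27a1 -0.039 to 1.36, Cyp27b1 -0.29 (voom), -0.32 (offset) and -0.11 to 0.20, Cyp2e1 1.23 (voom), 1.91 (replicate block) and -1.04 to 2.53, Cyp4f13 -0.052 (voom), -0.27 (offset) and -0.10 to 0.12, and Cyp51 -0.0011 (DESeq2), -0.048 (voom), -0.001 (RLE), -0.0096 (no filter), -0.17 (offset) and -0.13 to 0.062. Of all values for named genes, 538 kept sign and call, 53 lost the call, 4 gained it and 27 reversed. Called genes kept their sign under every setting that gave a value, which for Cyp17a1, Cyp2g1 and Cyp4f39 were 12 of 15. The filter, which asks for enough counts in several libraries, kept 46 genes above 0 out of the test, some of which were called without it.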
